A study of Mus musculus with 6 samples.

Results

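The transcripts described here encode the subunits of the mitochondrial respiratory chain and of ATP synthase that are made in the nucleus. Members were all rows of the deposited count table that were annotated as protein-coding and whose symbol began with Nduf followed by A, B, C, S or V and a digit (complex I), was Sdha, Sdhb, Sdhc or Sdhd (complex II), or began with Uqcr (complex III), Cox4 to Cox8 (complex IV) or Atp5 (complex V). The rule used names alone and found 86 of the 55860 rows, with 38 in complex I, 4 in complex II, 8 in complex III, 18 in complex IV and 18 in complex V. They carried 85 symbols, because Atp5o names 2 rows. Granulosa cells, the somatic cells that surround the oocyte, came from ovaries of mice with an intact (Il22r+/+) or a disrupted (Il22r-/-) interleukin-22 receptor gene. They were purified on a density gradient, kept for 12 h in medium with 10% serum and sequenced as RNA, with 3 libraries per genotype. The labels do not give the strain, the age of the mice, the disrupted part of the gene or the number of animals behind a library. They also do not say that libraries of a genotype came from separate animals or cultures, so the p-values below measure the spread between these 6 libraries, which may be technical.

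Oxidative phosphorylation passes electrons from NADH through complex I, or from succinate through complex II, to ubiquinone, and on through complex III, cytochrome c and complex IV to oxygen. Complexes I, III and IV pump protons across the inner mitochondrial membrane, and complex V uses the return flow to make ATP. Most subunits are translated from nuclear transcripts and imported, while a small set is encoded in mitochondrial DNA, so each of these complexes other than II is built from both genomes. Granulosa cells start steroid synthesis inside the mitochondrion.

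Counted reads came to between 17425229 and 17704556 in the Il22r+/+ libraries and between 14948187 and 18116413 in the Il22r-/- libraries. Il22ra1, taken as the targeted gene, had 1, 5 and 4 reads in the Il22r+/+ libraries and 5, 2 and 0 in those of Il22r-/-, too few to check the genotype labels. Il22r-/- replicate 3 stood apart: the chi-square statistic per gene was 27.3 and 21.9 between it and the other Il22r-/- libraries, 10.2 between those, and 4.76 to 6.77 between Il22r+/+ libraries. Of 13 granulosa markers, 11 had enough reads for a test, with 7 called higher and 2 lower; Foxl2 and Amhr2, which define these cells, were present in every library, and Amh and Cyp19a1 lay near the floor of 3 counts in most libraries. Markers of other cells moved with genotype. All 9 tested macrophage markers of 10 were called higher, with a summed level of 8.83 to 11.6 CPM in Il22r+/+ and 28.4 to 87.2 CPM in Il22r-/-, while 5 of 7 mesothelial markers were called lower (365.3 to 375.8 against 114.8 to 132 CPM). Of 6 smooth muscle markers 4 were called higher and 1 lower (267 to 322.1 against 357.5 to 577.4 CPM). Among 9 theca and stroma markers, 7 were tested, with 1 higher and 2 lower (694 to 717.9 against 230.9 to 397.5 CPM). Endothelial markers summed to 3.69 to 5.39 CPM in Il22r+/+ and 4.34 to 7.42 CPM in Il22r-/-, with Emcn and Tie1 at 0 in every Il22r+/+ library. Oocyte markers summed to at most 2.08 CPM, and 5 of 6 erythroid markers were at 0 in all libraries. The part of these other cells in the results below was not tested. In such bulk samples, fewer cells of a type and less RNA per cell cannot be told apart.

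Enough reads for a test were found for 79 of the 86 members, and their levels are given as CPM, read counts scaled by library total and TMM factor. In the edgeR quasi-likelihood test across 15227 genes, 17 members were higher in Il22r-/- at a Benjamini-Hochberg adjusted p under 0.05, which is 21.5% of the tested members and close to the 23.6% of all tested genes that were called higher. Lower calls were fewer, at 4 members or 5.06%, where 22.1% of all tested genes were called lower and 45.7% were called in either direction. The remaining 58 tested members did not pass. With library size as the only scaling, which moved the median of all genes by 0.103 on the log2 scale, 31 members were higher (30.2% of all genes were) and 3 lower (17.3%), and 63.6% of all calls were higher in place of 51.6%. The median log2 difference (Il22r-/- minus Il22r+/+) over the tested members was 0.25, against 0.03 over all tested genes, and 60 of the 79 values were above 0. The 3 Il22r-/- libraries lay wholly above the 3 Il22r+/+ libraries for 19 members (24.1%, against 28.7% of all tested genes) and wholly below for 6 (7.59%, against 27.3%). Among the called members, 10 were still called whichever of the 6 libraries was left out, while 11 were lost without at least 1 of them.

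A single library, Il22r-/- replicate 3, stood apart from its group in most members. Relative to the mean of Il22r+/+, the median member stood at a log2 difference of 0.32 in Il22r-/- replicate 1, 0.41 in replicate 2 and -0.09 in replicate 3, while the median of all tested genes stood at 0.04, 0.02 and 0.00. Both replicates 1 and 2 lay above every Il22r+/+ library for 59 of the 79 members (74.7%, against 36.7% of all tested genes). Replicate 3 lay below both other Il22r-/- libraries for 67 members (84.8%, against 40.6%). Without Il22r-/- replicate 3, 52 members were called higher (65.8%) and 5 lower (6.33%), with a median of 0.35 (0.01 over all genes), where 26.3% of all genes were called higher, 26.3% lower and 52.6% in either direction. All 17 higher and all 4 lower members of the fit with 6 libraries were among them. Leaving out another library gave fewer higher calls, with 8 without Il22r+/+ replicate 2, 10 without Il22r+/+ replicate 3, 9 without Il22r-/- replicate 1, 9 without Il22r-/- replicate 2 and 12 without Il22r+/+ replicate 1. Of all tested genes, 17.5% (without Il22r+/+ replicate 1) to 19.8% (without Il22r-/- replicate 1) were called higher in these fits. The lower calls came to 2 without Il22r+/+ replicate 2 (18% of all genes were lower) and 2 without Il22r+/+ replicate 3 (17.5%). Replicate 3 was also the shallowest library.

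**Figure D1:**
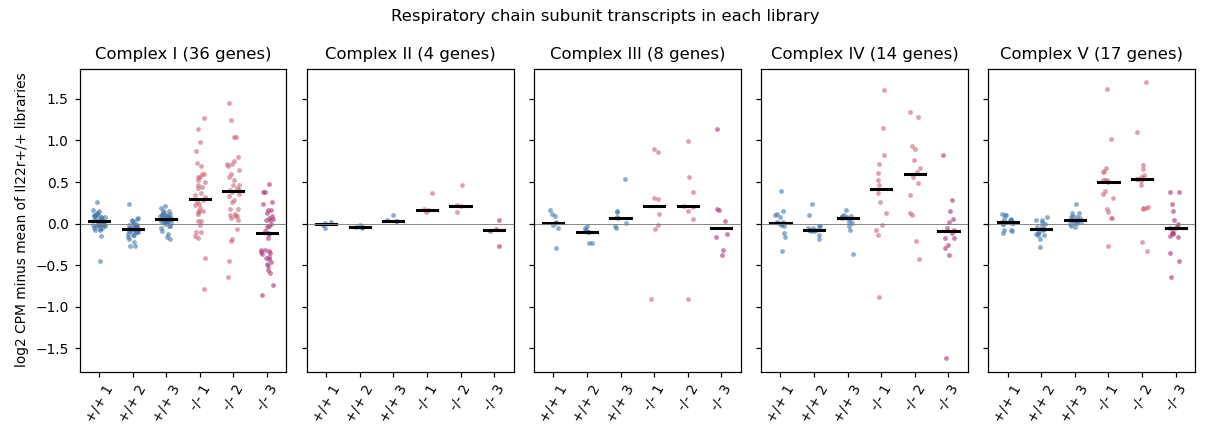
Each point is 1 tested member in 1 library, as log2 CPM minus the mean of the 3 Il22r+/+ libraries (vertical axis), in a panel for each complex; black bars mark the median of the complex. Replicates 1 and 2 of Il22r-/- have medians between 0.16 and 0.59 in the 5 complexes, and replicate 3 has medians between -0.12 and -0.05.

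The split between replicates 1 and 2 and replicate 3 ran through all 5 complexes. In complex I the median member stood at 0.30, 0.40 and -0.12 in Il22r-/- replicates 1 to 3, and in complex II at 0.16, 0.22 and -0.07. Complex III showed 0.21, 0.21 and -0.05. The widest gaps were in complex IV, with 0.42, 0.59 and -0.09, and in complex V, with 0.50, 0.54 and -0.05. With all 6 libraries, 9 of 36 tested members of complex I were higher and 2 lower, 0 of 4 in complex II in either direction, 1 of 8 higher in complex III, 3 of 14 higher and 1 lower in complex IV, and 4 of 17 higher and 1 lower in complex V. Without replicate 3 the higher calls were 23, 3, 4, 9 and 13 in complexes I to V, and the lower calls 2, 0, 1, 1 and 1. The higher shares with 6 libraries were 25%, 0%, 12.5%, 21.4% and 23.5%. Of all tested genes 23.6% were higher and 22.1% lower in that fit, and 26.3% higher and 26.3% lower without replicate 3.

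**Figure D2:**
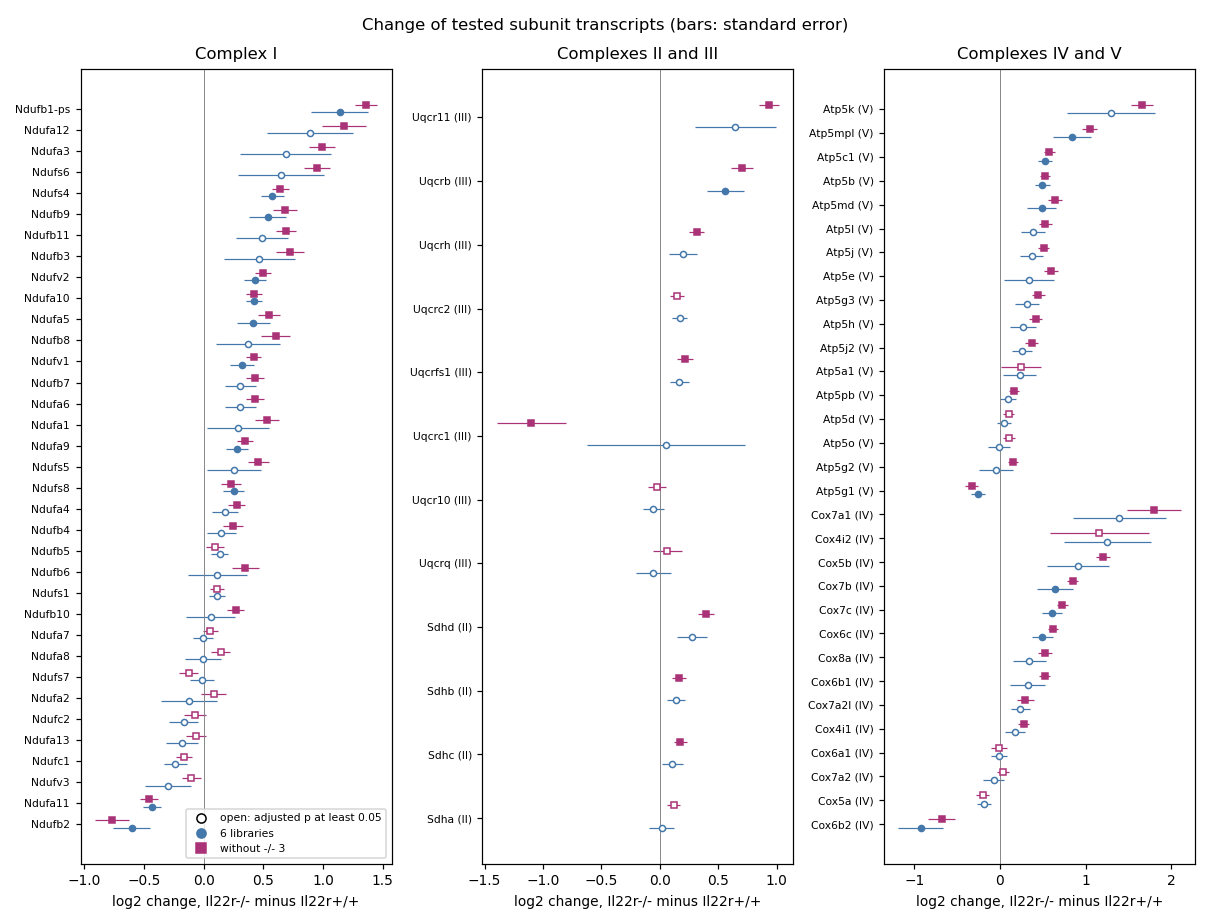
For the tested members, with 1 of complex I not drawn, the log2 difference between Il22r-/- and Il22r+/+ (horizontal axis) with its standard error is drawn from all 6 libraries (blue circles) and without Il22r-/- replicate 3 (purple squares); filled symbols have an adjusted p under 0.05. Most values move to the right and many become filled without replicate 3, Uqcrc1 crosses to the left, and Ndufa11, Ndufb2, Cox6b2 and Atp5g1 stay on the left.

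Promoter sequence is a feature that the naming rule did not use. RefSeq promoter windows (GRCm38.p6, 250 bases before to 50 after an annotated start) were matched by Ensembl gene identifier, or by symbol where that found none. Windows were found for 68 of the 85 symbols, giving 73 windows. Sites of 3 factors known for respiratory genes were searched on both strands: the NRF1 core GCGCANGCG, the GABP or ETS core CCGGAAG and the YY1 core AAGATGG. The NRF1 core was in 28.8% of the member windows and in 6.2% of all 32851 windows, the GABP or ETS core in 23.3% and 8.9%, and the YY1 core in 15.1% and 6.3%. Each motif was counted on its own, so matches may share bases. A match describes letters and is neither a bound site nor a cause. Below are 140 bases around the start (120 before, 20 after) of 4 members, chosen after their values were seen: Atp5c1 and Cox7c, which stayed called higher with each library left out, Ndufa11, which was lower, and Sdhd, whose window holds a pair of different cores. Sequences run 5′ to 3′ on the gene's strand, and capitals mark the matches.
Atp5c1, chr2:10080413-10080552, minus strand, NRF1 core: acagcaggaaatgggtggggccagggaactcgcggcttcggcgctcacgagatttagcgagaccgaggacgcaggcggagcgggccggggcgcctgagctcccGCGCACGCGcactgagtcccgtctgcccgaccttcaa
Cox7c, chr13:86046776-86046915, minus strand, YY1 core on the opposite strand: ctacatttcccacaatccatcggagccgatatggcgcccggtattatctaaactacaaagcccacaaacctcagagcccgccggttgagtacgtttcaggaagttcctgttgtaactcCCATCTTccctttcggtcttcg
Ndufa11, chr17:56717642-56717781, plus strand, NRF1 core on both strands: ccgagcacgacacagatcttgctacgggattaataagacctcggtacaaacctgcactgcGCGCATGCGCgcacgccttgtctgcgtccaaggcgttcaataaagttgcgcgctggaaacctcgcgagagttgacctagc
Sdhd, chr9:50603830-50603969, minus strand, NRF1 core, then GABP or ETS core on the opposite strand: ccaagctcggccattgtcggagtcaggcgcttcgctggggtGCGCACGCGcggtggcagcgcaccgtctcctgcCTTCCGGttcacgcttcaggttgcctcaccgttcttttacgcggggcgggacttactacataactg
The NRF1 core thus stands in a window of a member that rose (Atp5c1), of a member that fell (Ndufa11) and of a member that did not pass the test (Sdhd). Atp5c1 has another window, chr2:10080461-10080760, around a start farther upstream. That window does not hold the core, so the core printed above lies downstream of that start.

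In complex I, the catalytic core that binds NADH and carries the iron-sulphur clusters was mostly level or slightly higher. Ndufv1, the NADH-binding subunit, had 63.9, 61.5 and 64.02 CPM in Il22r+/+ replicates 1 to 3 and 85.8, 85.1 and 65.6 CPM in Il22r-/- replicates 1 to 3. Ndufv2, its iron-sulphur partner (ENSMUSG00000024099, chromosome 17, 66078638 to 66101559, minus strand; gene positions are those deposited, on mm10), had 53.6, 57.4 and 58.7 CPM and 83.9, 78.2 and 66.7 CPM. Ndufs8, an iron-sulphur subunit near the quinone site, had 35.2, 40.99 and 41.6 CPM and 46.3, 46.9 and 47.03 CPM. For these 3 core genes every Il22r-/- library lay above every Il22r+/+ library, with replicate 3 the lowest of the Il22r-/- libraries for Ndufv1 and Ndufv2. The log2 differences were 0.32 ± 0.10 (SE) for Ndufv1, 0.43 ± 0.09 for Ndufv2 and 0.25 ± 0.09 for Ndufs8, with adjusted p of 0.0249, 0.00323 and 0.0365. Ndufv2 kept its call with each library left out, while Ndufv1 (adjusted p up to 0.0964) and Ndufs8 (up to 0.171) lost theirs when any 1 of the 5 libraries other than Il22r-/- replicate 3 was left out. Ndufs1, an iron-sulphur subunit, and Ndufs7, near the quinone site, differed by 0.11 and -0.01 on the log2 scale and did not pass. Ndufs3, another core gene, had 0 reads in all 6 libraries, as did its neighbour Kbtbd4, so nothing was measured for it. A share of 35.8% of the 50-base words of Ndufs3 occurs in other annotated genes.

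The accessory subunits, which surround that core, included the steepest and the only falling members of complex I. Ndufb1-ps (ENSMUSG00000113902, chromosome 12, 101968090 to 101977068, minus strand), the mouse gene for a small membrane-arm subunit, had 21.7, 21.3 and 25.3 CPM in Il22r+/+ and 55.7, 62.8 and 31.7 CPM in Il22r-/-. It rose by a log2 difference of 1.14 ± 0.24 (adjusted p = 0.00633), and replicate 3 stood between the Il22r+/+ libraries and the other Il22r-/- libraries. Ndufs4 (ENSMUSG00000021764, chromosome 13, 114287795 to 114388258, minus strand), an accessory subunit of the NADH-oxidising module whose loss causes a Leigh-like disease, had 45.9, 44.1 and 49.8 CPM and 70.7, 76.7 and 60.5 CPM. Its groups did not overlap, and it rose by 0.57 ± 0.10 (adjusted p = 0.000792). Ndufa10, a membrane-arm subunit, was one of the few members with all 3 Il22r-/- libraries close together: 67.7, 66.5 and 72.6 CPM against 95.5, 91.6 and 89.8 CPM, a log2 difference of 0.42 ± 0.07 (adjusted p = 0.000748). These 3 kept their calls with each library left out.

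Ndufb9, Ndufa5 and Ndufa9 rose as well, with calls that depended on single libraries. Ndufb9, a membrane-arm subunit, had 25.7, 20.95 and 25.1 CPM and 38.8, 38.8 and 26.1 CPM, a log2 difference of 0.53 ± 0.16 (adjusted p = 0.0182). Ndufa5, of the quinone-binding module, had 24.2, 23.9 and 21.8 CPM and 34.5, 34.6 and 23.9 CPM, so that replicate 3 lay within the Il22r+/+ range (difference 0.41 ± 0.14, adjusted p = 0.0329). Ndufa9, of the same module, had 46.9, 46.1 and 49.5 CPM and 59.2, 63.01 and 50.5 CPM (difference 0.28 ± 0.09, adjusted p = 0.0301). Ndufb9 lost its call without Il22r+/+ replicate 2, Il22r-/- replicate 1 or Il22r-/- replicate 2 (adjusted p up to 0.0789), and Ndufa5 (up to 0.125) and Ndufa9 (up to 0.137) when any 1 library other than Il22r-/- replicate 3 was left out. Exons of Gm49356 cover 19.5% of Ndufb9 on the same strand.

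Ndufa11 and Ndufb2 fell. Ndufa11 (ENSMUSG00000002379, chromosome 17, 56717767 to 56722141, plus strand), a membrane-arm subunit, had 42.1, 41.3 and 43.1 CPM in Il22r+/+ and 31.6, 30.6 and 31.5 CPM in Il22r-/-, with both groups tight and apart. Its log2 difference was -0.43 ± 0.08 (adjusted p = 0.00118). Ndufb2 (ENSMUSG00000002416, chromosome 6, 39592574 to 39603382, plus strand), a membrane-arm subunit as well, had 14.3, 12.6 and 13.03 CPM and 7.51, 8.32 and 10.5 CPM, a difference of -0.61 ± 0.15 (adjusted p = 0.00838). In Ndufb2, replicate 3 was the Il22r-/- library nearest to Il22r+/+. Both genes kept their calls with each library left out, so falling and rising subunits of the same membrane arm stood side by side in the same libraries.

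The other accessory members ranged widely without passing the test. The largest was Ndufa12, of the NADH-oxidising module, with 9.18, 15.04 and 14.8 CPM and 28.5, 30.9 and 12.7 CPM (log2 difference 0.89 ± 0.36, adjusted p = 0.0868). Ndufa3 differed by 0.69 ± 0.38, from 34.3, 25.5 and 33.6 CPM to 61.3, 64.2 and 24.2 CPM, and Ndufs6, needed late in assembly of the NADH-oxidising module, by 0.65 ± 0.36, from 23.6, 22.4 and 18.8 CPM to 39.8, 44.6 and 16.5 CPM. In each of the 3, replicates 1 and 2 lay well above all Il22r+/+ libraries and replicate 3 lay among or below them. Without replicate 3 all 3 passed, with differences of 1.17, 0.99 and 0.95. Ndufa2, among the most abundant members of complex I per length (mean FPKM 94.6), had 60.5, 47.3 and 58.9 CPM and 56.7, 62.6 and 32.9 CPM, with overlapping groups (difference -0.13 ± 0.23, adjusted p = 0.693). Ndufa4, a gene named for complex I whose protein is now placed in complex IV, had 107, 93.3 and 100.3 CPM and 117, 129 and 93.9 CPM (difference 0.18 ± 0.11, adjusted p = 0.22). Its relative Ndufa4l2, linked to hypoxia, had 0, 1 and 2 reads in the Il22r+/+ libraries and 1, 4 and 1 in those of Il22r-/- and was not tested. A further 13 members of complex I did not pass and lay between -0.30 (Ndufv3, an accessory subunit of the NADH-oxidising module) and 0.49 (Ndufb11, of the membrane arm). Without replicate 3, Ndufa1, Ndufa6, Ndufb3, Ndufb7, Ndufb8, Ndufb10 and Ndufb11 among them were called higher, at 0.27 to 0.72. Counts of Ndufb6, Ndufa13, Ndufb4 and Ndufs5 are uncertain. Exons of genes on the other strand cover 39.0% of Ndufb6 (Smim27) and a part of Ndufa13 (Tssk6), and 37.0% and 31.1% of the 50-base words of Ndufb4 and Ndufs5 occur in other genes.

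Complex II, the succinate dehydrogenase that also works in the citric acid cycle, was the most level of the 5. Sdha, the flavoprotein, had 193, 185 and 196 CPM in Il22r+/+ and 210.4, 210.2 and 159 CPM in Il22r-/-, and its iron-sulphur partner Sdhb had 63.9, 61.7 and 65.5 CPM and 71.1, 73.7 and 65.6 CPM. The membrane anchor Sdhc had 106, 106 and 109.5 CPM and 121, 125 and 101 CPM. Replicate 3 was the lowest Il22r-/- library in each, and for Sdha and Sdhc it lay below all Il22r+/+ libraries. Sdhd, the other anchor, had 79.9, 80.4 and 89.1 CPM and 107, 115 and 79.5 CPM, with replicate 3 again lowest of all, and the largest difference of the 4 at 0.28 ± 0.13 (adjusted p = 0.102). The log2 differences of the others were 0.02 ± 0.11 for Sdha, 0.14 ± 0.07 for Sdhb and 0.11 ± 0.09 for Sdhc, and none passed with 6 libraries (adjusted p from 0.102 to 0.913). Without replicate 3, Sdhb, Sdhc and Sdhd were called at 0.17, 0.18 and 0.40, and Sdha was not (0.12, adjusted p = 0.108).

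In complex III, which hands electrons from ubiquinol to cytochrome c, 1 member rose. Uqcrb (ENSMUSG00000021520, chromosome 13, 66900617 to 66905378, minus strand), a small subunit that binds ubiquinone, had 43.4, 37.3 and 39.3 CPM and 72.8, 59.3 and 44.7 CPM, with every Il22r-/- library above every Il22r+/+ library. The log2 difference was 0.56 ± 0.16 (adjusted p = 0.0185). That call was lost without Il22r+/+ replicate 2, Il22r+/+ replicate 3 or Il22r-/- replicate 2 (adjusted p up to 0.0704), and 43.2% of the 50-base words of Uqcrb occur in other genes. Uqcrfs1, the Rieske iron-sulphur protein, had 116, 113 and 124 CPM and 146, 131 and 119.9 CPM (difference 0.17 ± 0.09, adjusted p = 0.131). Uqcr10, the most abundant member per length in this complex (mean FPKM 120.4), had 67.5, 65.6 and 77.8 CPM and 67.3, 72.99 and 62.9 CPM, and the groups overlapped (difference -0.05 ± 0.09, adjusted p = 0.655). The core protein Uqcrc2 was higher in all 3 Il22r-/- libraries, at 112, 120 and 117 CPM against 104, 101 and 104 CPM, and just missed the threshold (difference 0.17 ± 0.07, adjusted p = 0.0608).

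Uqcrc1 turned direction and became called when 1 library was left out. This core protein had only 74, 76 and 137 reads in the Il22r+/+ libraries and 51, 50 and 191 in those of Il22r-/-, far below its partner Uqcrc2. Replicate 3 was the highest of the 6 libraries and replicates 1 and 2 were the lowest, the opposite of the pattern in most members. With 6 libraries the log2 difference was 0.05 ± 0.68 (adjusted p = 0.959). Without Il22r-/- replicate 3 it was -1.10 and called lower (adjusted p = 0.00763). The remaining small subunits were Uqcr11 (0.65), Uqcrh (0.20) and Uqcrq (-0.05), given as log2 differences, and none passed. Without replicate 3, Uqcr11 (0.94, adjusted p = 1.87e-06) and Uqcrh (0.32, 0.00113) were called higher, and Uqcrq was not.

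Complex IV, cytochrome c oxidase, had 3 members that rose, all widely expressed small subunits around the catalytic core. Cox7c (ENSMUSG00000017778, chromosome 13, 86044816 to 86046904, minus strand) had 106, 102 and 114 CPM in the Il22r+/+ libraries and 177, 183 and 131 CPM in the Il22r-/- libraries, or 0.61 ± 0.12 on the log2 scale (adjusted p = 0.00228). Cox6c had 98.1, 89.03 and 91.3 CPM and 141, 148 and 103 CPM (0.49 ± 0.12, adjusted p = 0.00943). Cox7b, on chromosome X (106015700 to 106022450, plus strand), had 42.8, 41.4 and 42.9 CPM and 75.5, 79.2 and 43.02 CPM (0.64 ± 0.21, adjusted p = 0.0419). The groups did not overlap for these 3 genes, although replicate 3 of Cox7b lay barely above the highest Il22r+/+ library. Cox7c and Cox6c kept their calls with each library left out, and Cox7b was called only with all 6 libraries or without Il22r-/- replicate 3 (otherwise adjusted p up to 0.16). The count of Cox7c is uncertain, since 53.0% of its 50-base words occur in other genes.

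Cox5b showed the widest gap between libraries among the abundant members of complex IV. It had 51.2, 43.4 and 43.7 CPM in Il22r+/+ and 103, 113 and 43.7 CPM in Il22r-/-: replicates 1 and 2 lay far above every Il22r+/+ library, and replicate 3 lay within their range. The log2 difference was 0.91 ± 0.37 (adjusted p = 0.0988), and 1.21 without replicate 3 (adjusted p = 1.17e-07). Cox6a1, with the highest mean FPKM of all members (383.4), was level at 285, 232 and 279 CPM and 252, 283 and 255 CPM (-0.01 ± 0.10, adjusted p = 0.931). Cox8a (mean FPKM 228.6), Cox6b1 and Cox4i1 followed the split between libraries. Cox8a had 133, 112 and 124 CPM and 169, 189 and 109 CPM, Cox6b1 had 105, 96.7 and 108 CPM and 148, 152 and 86.04 CPM, and Cox4i1 had 242, 228 and 251 CPM and 288, 304 and 223 CPM. None passed with 6 libraries (adjusted p of 0.183, 0.238 and 0.227), and all 3 passed without replicate 3 (0.53, 0.52 and 0.28). Cox5a stood lower in all 3 Il22r-/- libraries, at 63.1, 59.97 and 61.6 CPM against 64.5, 67.3 and 77.9 CPM, without passing (-0.18 ± 0.08, adjusted p = 0.102). Cox7a2 differed by -0.07 and Cox7a2l, a factor of respiratory supercomplexes, by 0.24. Neither passed, and without replicate 3 Cox7a2l was called higher (0.30, adjusted p = 0.0353).

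The restricted isoforms of complex IV, which replace the common forms in muscle, testis or lung, were scarce, and they did not move as 1 group. Cox6b2, a form known from testis (chromosome 7, 4751792 to 4753094, minus strand), had 15.6, 18.8 and 18.3 CPM in Il22r+/+ and 9.24, 12.96 and 5.39 CPM in Il22r-/-, with no overlap and with replicate 3 lowest. It fell, with a log2 difference of -0.92 ± 0.26 (adjusted p = 0.0191), and lost its call without Il22r+/+ replicate 2, Il22r+/+ replicate 3 or Il22r-/- replicate 1 (adjusted p up to 0.0681). Its common partner Cox6b1 stood in the other direction, as given above. Cox7a1, the muscle form of Cox7a2, had 13, 23 and 20 reads in the Il22r+/+ libraries and 82, 66 and 12 in those of Il22r-/- (1.39 ± 0.54, adjusted p = 0.0634; 1.80 without replicate 3, adjusted p = 0.000376). Cox4i2, the lung form of subunit 4, had 11, 6 and 3 reads and 12, 22 and 16 (1.25 ± 0.51, adjusted p = 0.066), with overlapping groups. Cox6a2 had 3 to 7 reads in every library and was not tested. Cox7b2 and Cox8b had 1 read each in a single library and Cox8c had 0, so 3 counts, or 0.158 to 0.197 CPM by library, bound what could be seen.

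Complex V, the ATP synthase, had 4 members that rose and 1 that fell. Atp5b (ENSMUSG00000025393, chromosome 10, 128083273 to 128090391, plus strand) encodes the beta subunit that carries the catalytic sites and was the member with the most reads. It had 809, 799 and 827 CPM in Il22r+/+ and 1170, 1200 and 1060 CPM in Il22r-/-, and all 3 Il22r-/- libraries, replicate 3 included, lay well above Il22r+/+. The log2 difference was 0.49 ± 0.08 (adjusted p = 0.000865). Atp5c1 (ENSMUSG00000025781, chromosome 2, 10056016 to 10080510, minus strand), the gamma subunit of the central stalk, had 107, 119 and 113 CPM and 176, 165 and 147 CPM (0.53 ± 0.09, adjusted p = 0.000601). Both were called whichever library was left out. The alpha subunit Atp5a1, which forms the head together with beta, had only 15.4, 16.9 and 16.9 CPM and 25.5, 14.03 and 18.3 CPM, with overlapping groups (0.23 ± 0.19, adjusted p = 0.351). This count lay far below that of Atp5b. Why was not tested, so it is uncertain as a measure of Atp5a1 expression. Atp5d and Atp5e, the other stalk subunits, differed by 0.05 and 0.34 and did not pass. Without replicate 3, Atp5e was called higher (0.60, adjusted p = 4.01e-05).

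Atp5mpl, a small membrane subunit, had the largest called difference in complex V. Atp5mpl (chromosome 12, 111961375 to 111966977, minus strand), a short proteolipid, had 33.8, 30.4 and 36.7 CPM and 68.2, 72.6 and 39.5 CPM, without overlap (0.84 ± 0.22, adjusted p = 0.0162). Atp5md, also called Dapit, had 64.4, 54.2 and 67.3 CPM and 98.4, 97.9 and 63.6 CPM, with replicate 3 inside the Il22r+/+ range (0.49 ± 0.17, adjusted p = 0.0477). Atp5mpl lost its call without Il22r+/+ replicate 2 or Il22r-/- replicate 1 (adjusted p up to 0.0758), and Atp5md when any 1 library other than Il22r-/- replicate 3 was left out (up to 0.148). Atp5k, the e subunit, had 236, 184 and 269 reads in the Il22r+/+ libraries and 808, 838 and 186 in those of Il22r-/-: replicates 1 and 2 lay far above the Il22r+/+ libraries and replicate 3 lay among them. With 6 libraries it did not pass (1.29 ± 0.51, adjusted p = 0.0944), and without replicate 3 it had 1.66 (adjusted p = 5.38e-07). Atp5l and Atp5j2, the g and f subunits, differed by 0.39 (adjusted p = 0.0558) and 0.26 (0.106), and both were called higher without replicate 3 (0.53 and 0.37). In Atp5l 68.5% of the 50-base words occur in other genes.

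The rotating ring of ATP synthase is made of the c subunit, and 3 genes encode the same mature protein with different import signals. Atp5g1 (chromosome 11, 96068852 to 96075670, minus strand) had 54.9, 61.7 and 62.5 CPM in Il22r+/+ and 49.2, 47.2 and 53.7 CPM in Il22r-/-, Atp5g2 had 80.7, 81.9 and 79.4 CPM and 89.3, 92.7 and 51.7 CPM, and Atp5g3 had 202, 176 and 205 CPM and 255, 282 and 187 CPM. The 3 genes differed: Atp5g1 was lower in all 3 Il22r-/- libraries, Atp5g2 was low in replicate 3 alone, and Atp5g3 was high in replicates 1 and 2. Atp5g1 fell (-0.26 ± 0.08, adjusted p = 0.0303), while Atp5g2 (-0.05 ± 0.20, adjusted p = 0.866) and Atp5g3 (0.31 ± 0.14, adjusted p = 0.102) did not pass. Atp5g1 lost its call with library size as the only scaling (-0.15, adjusted p = 0.154) and without Il22r+/+ replicate 2, Il22r+/+ replicate 3, Il22r-/- replicate 1 or Il22r-/- replicate 2 (up to 0.114). Without Il22r-/- replicate 3, Atp5g2 turned to 0.15 and was called higher (adjusted p = 0.0448), as was Atp5g3 (0.45). In Atp5g2 87.4% of the 50-base words occur in other genes, so its count is the least certain of the 3.

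The peripheral stalk, which holds the head still, did not pass in any member with 6 libraries. Atp5j differed by 0.37 ± 0.14 (adjusted p = 0.052), from 101, 95.4 and 102 CPM to 143, 145 and 98.1 CPM, and Atp5h by 0.27. Atp5pb and Atp5o differed by 0.10 and -0.01. Without replicate 3, Atp5j (0.51), Atp5h (0.42) and Atp5pb (0.16) were called higher (adjusted p = 1.4e-05, 0.000466 and 0.0326), and Atp5o was not. In Atp5h 47.9% of the 50-base words occur in other genes. A second row named Atp5o (ENSMUSG00000116933) had 0 reads throughout; all of its exon length lies within exons of another gene on the same strand. The main Atp5o row shares 35.6% of its exon length with genes on the other strand and 35.5% of its 50-base words with other genes.

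Summed over all 86 members, the nuclear transcripts took 6274, 5894 and 6407 CPM in Il22r+/+ replicates 1 to 3 and 7850, 8203 and 6129 CPM in Il22r-/- replicates 1 to 3. Replicates 1 and 2 of Il22r-/- lay above all Il22r+/+ libraries and replicate 3 lay within their range. The means were 6192 ± 266 and 7394 ± 1110 CPM (SD, n = 3), and on the FPKM scale of the authors 4027 ± 223 and 4657 ± 827. Complex V had the largest ratio of means in CPM (1.28), followed by complex IV (1.19), I (1.15), III (1.12) and II (1.08). A large part of the rise in complex V came from Atp5b alone. Its mean went from 811.6 to 1143 CPM, and the complex V sum from 2162 to 2763 CPM. By median log2 difference, complex IV (0.33) and complex V (0.31) were close. The sum over the 13 subunits encoded in mitochondrial DNA, most of it mt-Co1, was lower in Il22r-/-, with 27071, 29059 and 27464 CPM in Il22r+/+ and 20048, 19875 and 26425 CPM in Il22r-/-. Some of the 13 added little to this sum: mt-Co2, mt-Co3, mt-Atp6, mt-Nd4l and mt-Nd3 had at most 51.2 CPM in any library, and mt-Atp8 at most 6 reads. Why these counts lay so far below that of mt-Co1 was not tested, so they are uncertain as measures of expression. The ratio of nuclear to mitochondrially encoded CPM was 0.232, 0.203 and 0.233 in Il22r+/+ and 0.392, 0.413 and 0.232 in Il22r-/-. Replicate 3 lay within the Il22r+/+ range in this ratio, and its mitochondrially encoded sum lay just below that of every Il22r+/+ library. CPM values share 1 total in each library, so a rise of one set lowers the share of others. When the mitochondrially encoded genes were left out of the fit, the same counts of 17 higher and 4 lower members were obtained.

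**Figure D3:**
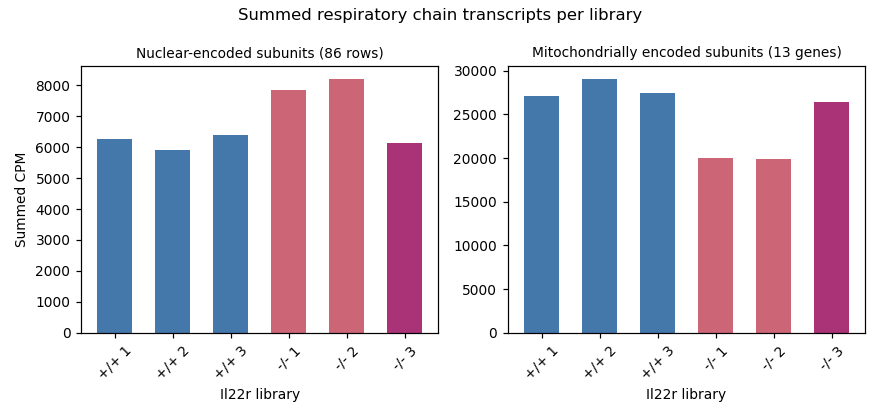
Bars give summed CPM per library, on axes that start at 0, for the 86 rows of nuclear-encoded subunits (left) and the 13 mitochondrially encoded subunits (right). Replicates 1 and 2 of Il22r-/- are highest on the left and lowest on the right, and replicate 3 lies close to the Il22r+/+ libraries.

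Of the mitochondrially encoded subunits, 12 were tested, with 4 lower (33.3%, against 22.1% of all genes), 0 higher at the adjusted threshold (23.6% of all genes were) and a median log2 difference of -0.39. mt-Nd1, mt-Nd2 and mt-Nd3, all of complex I, lay above 0 without passing (0.14, 0.04 and 0.67). Under the other scalings tried the median lay between -0.41 and -0.29. mt-Nd4, a proton-pumping subunit of complex I, had 2363, 2604 and 2328 CPM in Il22r+/+ and 1693, 1605 and 2003 CPM in Il22r-/- (-0.46 ± 0.11, adjusted p = 0.00505) and was called with each library left out. mt-Co1, the catalytic subunit of complex IV and the respiratory transcript with the most counted reads, had 14460, 15050 and 14960 CPM and 10020, 10190 and 13560 CPM (-0.40 ± 0.13, adjusted p = 0.0281). mt-Nd6 had 932, 1049 and 999 CPM and 635, 715 and 911 CPM (-0.40 ± 0.13, adjusted p = 0.0254), and mt-Cytb, of complex III, was the other called gene (-0.30 ± 0.11, adjusted p = 0.0435). The groups did not overlap for the 4 genes. mt-Co1 and mt-Nd6 lost their calls when any 1 library other than Il22r-/- replicate 3 was left out (adjusted p up to 0.0998 and 0.0955), and mt-Cytb without Il22r-/- replicate 2 or any Il22r+/+ library (up to 0.172). Without Il22r-/- replicate 3, 7 of the 12 were lower (58.3%, against 26.3% of all genes) and the median was -0.58. Leaving out any other single library gave 1 or 2 lower, where 16.9% to 19.9% of all genes were lower. Scaling by library size alone left 1 of the 12 lower, where 17.3% of all genes were. Reads of these genes can also come from nuclear copies of mitochondrial DNA, so their counts are uncertain.

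The members are short, and their level in a library went with transcript length. The median length of the principal transcript (GENCODE M21) was 861 bases in the 77 members averaging 5 CPM or more and 3122 bases in the other tested genes at that level, and 53 of the 77 members had at most 1200 bases. In the 18 members of up to 600 bases the median log2 differences from Il22r+/+ were 0.48, 0.58 and -0.17 in Il22r-/- replicates 1 to 3. Other genes of that length (203) gave 0.55, 0.60 and 0.27. In the 16 members over 1200 and up to 2000 bases the medians were 0.15, 0.19 and 0.04, against 0.05, 0.05 and -0.07 in 1733 other genes. Short members and short other genes were thus both high in replicates 1 and 2, while replicate 3 was lower for the members than for other genes of up to 800 bases. The 2 members over 4000 bases by this annotation, Ndufb2 and Atp5g1, were both called lower. Among transcripts of equal rank the longest was taken as principal, so a length need not be that of the form present in these cells. Across the 77 members the difference of replicate 3 from replicates 1 and 2 correlated with length at a Spearman rho of 0.52. Across the 10996 genes with a length and an average of 5 CPM or more, members included, the rho was 0.43. These correlations describe libraries that share reads and depth, and genes are not independent replicates.

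**Figure D4:**
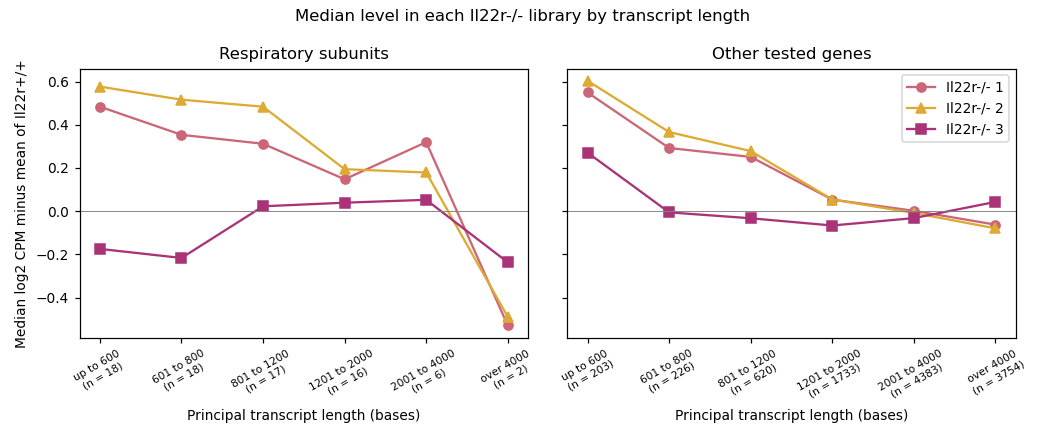
Lines give the median log2 CPM difference of each Il22r-/- library from the mean of Il22r+/+ (vertical axis) in 6 classes of principal transcript length (horizontal axis), for the members (left) and the other tested genes (right), with the number of genes under each class. Replicates 1 and 2 are high among short transcripts in both panels, at 0.48 and 0.58 among the shortest members; the class over 4000 bases holds only 2 members.

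When the fit was corrected for principal transcript length, an alternative chosen after seeing the data, 14 members were higher (23.8% of all genes were in that fit) and 12 lower (24.1% were), with a median of 0.09 in place of 0.25. Of the 17 members called higher with 6 libraries, 14 were still called, and all 4 lower members were. A correction for length and GC content together gave 13 higher and 10 lower, against 23.6% and 23.8% of all genes, with 10 of the 17 still called. With the length correction and without Il22r-/- replicate 3 there were 36 higher and 13 lower members, against 26.4% and 26.5% of all genes. In each of these fits 79 members were tested. Whether transcript length or another property of the libraries makes the difference was not tested.

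Genes that build and serve the chain were described from lists set up beside the members. Assembly factors, which insert cofactors and join subunits, numbered 51 tested, with 10 higher (19.6%) and 6 lower (11.8%) and a median of 0.12, against 23.6% and 22.1% of all genes. The higher count was 17 without Il22r-/- replicate 3 (26.3% of all genes were higher). It was 4 to 6 without any other single library (17.5% to 19.8% were). The lower count was 3 without Il22r+/+ replicate 3 (17.5% of all genes were lower) and 4 without Il22r+/+ replicate 1 (16.9%). Coa7, an assembly factor of complex IV, rose from 8.01, 6.86 and 8.47 to 15.2, 17.9 and 13.2 CPM (0.99 ± 0.15, adjusted p = 0.000469). Lrpprc, which stabilises mitochondrial messenger RNA, rose by 0.37 ± 0.07 (adjusted p = 0.00217). Cox19 and Sdhaf2, which serve complex IV and attach flavin to Sdha, fell by 0.49 and 0.35 on the log2 scale (adjusted p = 0.00281 and 0.00594), and Ttc19, a complex III factor, by 0.34 (0.00828). These 5 kept their calls with each library left out. Ndufaf2, Nubpl, Ndufaf4, Cox10 (higher) and Ndufaf3, Cox18, Higd2a (lower) were called with 6 libraries and each lost its call without at least 2 of the libraries (adjusted p up to 0.123). In complex V, Atpif1, the inhibitor of ATP hydrolysis, had 66.03, 63.1 and 63.1 CPM and 99.98, 102 and 60.2 CPM (0.45 ± 0.18, adjusted p = 0.0822), and Tmem70 differed by -0.13 (0.227).

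Electron carriers and ubiquinone enzymes came to 21 tested genes, 4 higher (19%) and 2 lower (9.52%), with a median of 0.18, where 23.6% of all genes were higher. The higher count was 9 without Il22r-/- replicate 3, 3 without Il22r+/+ replicate 2 and 2 without each of the other 4 libraries. Of all genes, 26.3% were higher without Il22r-/- replicate 3 and 17.5% to 19.8% without another single library. Dhodh, which feeds electrons from pyrimidine synthesis to ubiquinone, rose from 11.4, 11.3 and 9.95 to 19.1, 17.5 and 15.8 CPM (0.69 ± 0.13, adjusted p = 0.00131). Coq10b and Coq10a, ubiquinone-binding chaperones, fell. Coq10b went from 65.7, 63.6 and 67.9 to 40.3, 37.9 and 48.8 CPM (-0.64 ± 0.10, adjusted p = 0.000437), and Coq10a differed by -0.63 ± 0.12 (adjusted p = 0.00199). Cytochrome c itself (Cycs) had 53.2, 50.6 and 55.02 CPM and 82.1, 88.8 and 52.7 CPM, the same split between libraries as most members, and passed narrowly (0.50 ± 0.18, adjusted p = 0.0497). Its call and that of Coq6 (0.48 ± 0.14) depended on single libraries, with adjusted p up to 0.161 and 0.0738 when one was left out. In Coq10a, Coq10b and Dhodh the groups did not overlap, and the calls were kept with each library left out.

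Transcription factors and enzymes that control respiratory genes and mitochondrial DNA were higher in 10 of 14 tested genes (71.4%, against 23.6% of all genes), with 0 lower at the adjusted threshold and a median of 0.31. The count depended on single libraries: it was 4 without Il22r+/+ replicate 1, 6 without Il22r+/+ replicate 3, 6 without Il22r-/- replicate 2, and 7 without Il22r+/+ replicate 2 or Il22r-/- replicate 1. Of all genes, 17.5% to 19.8% were higher in these fits. Ppargc1a, a coactivator that drives mitochondrial biogenesis, was near the floor in Il22r+/+ with 3 reads in each library and had 16, 16 and 15 reads in Il22r-/- (2.28 ± 0.46, adjusted p = 0.00225). Tfam, which packages and transcribes mitochondrial DNA, had 30.5, 34.7 and 33.2 CPM and 41.1, 40.3 and 38.1 CPM (0.28 ± 0.09, adjusted p = 0.0216). Twnk, the mitochondrial helicase, and Polg, the mitochondrial polymerase, rose by 0.47 ± 0.08 and 0.36 ± 0.07 (adjusted p = 0.0011 and 0.00263), and Pprc1, a coactivator, by 0.35 ± 0.10 (0.015). Ppargc1a, Twnk and Polg kept their calls with each library left out, Pprc1 lost its call without Il22r+/+ replicate 1 (adjusted p = 0.0832), and Tfam without 4 of the 6 (up to 0.107). Of the factors whose cores were searched in the promoters, Nrf1 rose by 0.28 ± 0.11 (adjusted p = 0.0491, and 0.106 without Il22r-/- replicate 3) and Gabpa by 0.21 ± 0.07 (0.0254), while Gabpb1, the partner of Gabpa, and Yy1 differed by 0.08 ± 0.09 (0.482) and -0.13 ± 0.08 (0.205) and did not pass. Leaving out Il22r-/- replicate 3 gave 9 higher and 2 lower in this list, where 26.3% of all genes were higher and 26.3% lower.

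The citric acid cycle list had 7 of 17 higher (41.2%, against 23.6% of all genes) and 0 lower at the adjusted threshold, with a median of 0.17. The higher count was 3 without Il22r+/+ replicate 1, 3 without Il22r+/+ replicate 2 and 5 to 9 without each of the other 4 libraries. Of all genes, 26.3% were higher without Il22r-/- replicate 3 and 17.5% to 19.8% without another single library. Idh2, the mitochondrial isocitrate dehydrogenase that makes NADPH, was the tightest, at 67.7, 69.9 and 68.4 CPM and 165, 166 and 162 CPM (1.26 ± 0.07, adjusted p = 4.26e-07). Suclg2 and Idh3g rose by 0.49 ± 0.08 and 0.36 ± 0.08 (adjusted p = 0.000795 and 0.00332). In the list of import, chaperone and channel genes 8 of 18 were higher (44.4%, against 23.6% of all genes) and 0 lower (against 22.1%). Leaving out Il22r-/- replicate 3 gave 11 higher and 3 lower, where 26.3% of all genes were higher and 26.3% lower. Leaving out any other single library gave 7 higher, where 17.5% to 19.8% of all genes were. The chaperonin pair Hspd1 and Hspe1 rose together, Hspd1 from 248, 269 and 253 to 489.7, 482 and 377 CPM (0.81 ± 0.11) and Hspe1 from 58.8, 56.6 and 55.4 to 126, 128 and 81.8 CPM (0.98 ± 0.16), and Phb2, an inner membrane scaffold, by 0.55 ± 0.07 (adjusted p = 0.000147, 0.00121 and 0.000167). All 6 genes kept their calls with each library left out.

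Mitochondrial ribosomal proteins, which translate the mitochondrially encoded subunits, were higher in 30 of 76 tested genes (39.5%, against 23.6% of all genes) and lower in 1 (1.32%, against 22.1%), with a median of 0.26, close to that of the respiratory members. Mrpl42 rose by 0.70 ± 0.11 (adjusted p = 0.000434), Mrpl50 by 0.62 ± 0.17 (0.0135) and Mrpl46 by 0.59 ± 0.15 (0.00903), and Mrps34 fell by 0.38 (0.0111). Mrpl50 lost its call without Il22r+/+ replicate 1 or Il22r+/+ replicate 2 (up to 0.0618). Without Il22r-/- replicate 3 the list had 52 higher and 3 lower, where 26.3% of all genes were higher and 26.3% lower. Leaving out any other single library gave 21 to 25 higher, where 17.5% to 19.8% of all genes were. The median log2 difference of replicate 3 from the mean of replicates 1 and 2 was -0.27 in this list, -0.46 in the respiratory members, 0.11 in the regulators and -0.01 over all tested genes. It was -0.31 in the assembly factors, -0.20 in the carriers, -0.12 in the import list and -0.02 in the citric acid cycle list. Other genes of up to 600 bases that averaged 5 CPM or more stood at -0.34. Replicate 3 thus lay below its partners in the respiratory and ribosomal lists, in several related lists and in other short genes, and not in the regulators.

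**Figure D5:**
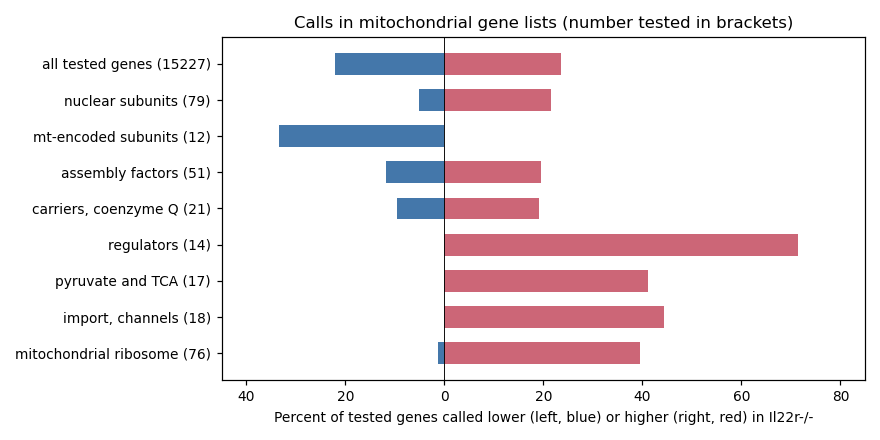
Horizontal bars give the percent of tested genes called lower (left, blue) or higher (right, red) in Il22r-/- for all genes, the nuclear and mitochondrially encoded subunits and 6 companion lists, with the number tested in brackets. Nuclear subunits have 21.5% higher against 23.6% of all genes, and 5.06% lower against 22.1%.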

How the data were processed

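RNA of 6 granulosa cell libraries, 3 per genotype, was sequenced. The authors deposited raw read counts per gene in one table and FPKM values in another. The submitters' processing notes name featureCounts 1.5.0-p3 and the mm10 build; the sources used here name neither the aligner nor the strand setting. The deposited FPKM could be rebuilt from the counts and the deposited gene length with 1 constant per library, 0.936 to 1.05 times the total. Such gene lengths join all exons, so FPKM understates genes with long unused exons.

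Counts were tested with edgeR 4.0.16 (R 4.3.3): filterByExpr, TMM scaling, robust quasi-likelihood test on genotype and Benjamini-Hochberg adjustment over 15227 genes. Alternatives used DESeq2 1.42.0, limma 3.58.1 (voom, or log2(FPKM + 1) and log2(FPKM + 0.1)), other scalings and filters, a replicate block and leaving out each library. Length and GC corrections (lowess, span 0.3) and fits without Il22r-/- replicate 3 that add the block or the length correction were chosen after seeing the data, as were the subunit classes. Gene models came from GENCODE M21 and promoters from RefSeq.

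The members and all gene lists were chosen with earlier results of these data known. Genes were named by rule: in each complex up to 5 called members by size of change, the 2 with the highest FPKM and up to 3 against the direction of their complex; the restricted isoforms and their partners; the c subunit genes; and in each companion list up to 3 called genes per direction with a mean of at least 5 CPM. Other members named beside these were chosen after their values were seen. The values of 1 member are not reported here, although it is part of every count and sum. Intervals of 3 counts cover counting error only.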

Additional observations from a re-analysis of the deposited data

How the results depend on the processing

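With 22 alternatives, 1736 member values were compared: 1492 kept their call or lack of one, 90 lost a call, 150 gained one and 4 turned direction and passed the test. The members called higher, 17 as reported, numbered 31 with library size only, 27 with no filter on low counts, 7 with limma on unfiltered log2(FPKM + 1), 36 with the length correction in 5 libraries (without Il22r-/- replicate 3), and 8 to 52 with each library left out. Of all genes in the same fits, 30.2%, 14.3%, 9.22%, 26.4% and 17.5% to 26.3% were called higher. The members called lower, 4 as reported, numbered 2 on unfiltered FPKM, 8 with a correction for deposited gene length, 12 for principal transcript length, 10 for length and GC, 13 for length in 5 libraries, and 2 to 5 with each library left out. Lower calls over all genes in these fits came to 10.2%, 23.6%, 24.1%, 23.8%, 26.5% and 16.9% to 26.3%. The Atp5g2 log2 change, -0.05 as reported, was -0.21 to 0.15 with each library left out, and above 0 without Il22r-/- replicate 3. The Uqcrc1 log2 change, 0.05 as reported, was -1.10 to 0.40 with each library left out, and in 5 libraries -1.14 with the length correction and -0.75 with the replicate block. The cause was not tested.

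Deviations from the genotype mean correlated at 0.052, -0.087 and -0.068 between same-numbered libraries of the 2 genotypes, over 11077 genes. With 3 libraries per genotype, and with Il22r-/- replicate 3 apart from its group, these values cannot decide whether the numbers pair the libraries. With the replicate block, 14 members were higher and 4 lower (21.5% and 20.6% of all genes were), and Ndufa9, Ndufs8 and Atp5md lost their calls (adjusted p = 0.0598, 0.0547 and 0.0618). In 5 libraries with the block, 46 members were higher, where 22.5% of all genes were. Low counts limit Uqcrc1 and the restricted isoforms of complex IV.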
